A study of Mus musculus with 30 samples.

Results

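Small leucine-rich proteoglycans (SLRPs) were followed through a differentiation of mouse embryonic stem cells (ESCs) towards the kidney. The members were the rows of the deposited expression table that carry the symbols Dcn, Lum, Ogn, Aspn, Bgn, Fmod, Omd, Prelp, Epyc and Podn. All 10 symbols had a row, among 23986 gene symbols in all. RNA from each sample was hybridised to an Affymetrix Mouse Gene 2.0 ST array, with 3 arrays in each of 10 groups, and each value is on a log2 scale. ESCs of the line 1B10 were grown on a feeder layer of mouse embryonic fibroblasts that had been treated with mitomycin C. For differentiation they were replated on gelatin in Fgf2 and activin A (priming), and then made into mesoderm with Bmp4, activin A and Fgf2. Intermediate mesoderm followed in Y27632 (an inhibitor of the kinase ROCK), retinoic acid and activin A, and renal progenitors in Bmp7 and Fgf2. Organoids were dissociated progenitors that had been aggregated on a filter at an air–liquid interface. They received Y27632, then CHIR99021 (an activator of Wnt signaling) with Bmp7, then medium with serum alone, and were taken after 8, 14 or 21 days (8D, 14D and 21D organoids). The native tissues were whole E12.5, E13.5 and adult mouse kidneys, for which no strain and no adult age is given. All cultured groups come from a single ESC line, and no allele or transgene is named for any group.

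SLRPs are secreted proteins of the extracellular matrix, built from leucine-rich repeats that bind collagen. They set the width and spacing of collagen fibrils, and several hold growth factors of the TGF-beta family in the matrix or bind receptors on cells. Fibroblasts and other cells of connective tissue are their main source. In the kidney, decorin and biglycan are known from the interstitium and from scarring, where collagen builds up.

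Array medians lay between 5.757 and 5.941. Background was read from 1399 genes of olfactory and vomeronasal receptors, most of whose products act mainly in the nose. Their 95th percentile lay between 4.99 and 5.636 on each array and is called the receptor level below. Neither the labels nor the methods state that replicates were separate cultures or animals, so p-values measure the spread between arrays, which may be technical. The labels also name a batch, without saying what it is. Batch 1 was replicate 1 of the 4 cultured stages before organoids and of E13.5 kidneys, and batch 2 the remaining 25 arrays. The labels were set against marker genes. All 10 tubule and duct markers were above the receptor level on every adult array, and their array means of 10.850 to 11.126 did not overlap with the other groups. Of 5 intermediate mesoderm markers, Osr1, Lhx1 and Wt1 were above the receptor level on all 3 intermediate mesoderm arrays and Pax2 and Pax8 on none, and 2 of the 5 rose from mesoderm and none fell. In progenitors the array means of 6 nephron progenitor markers (7.218 to 7.407) were below those of the embryonic kidneys (9.391 to 9.773). Array means of 5 pluripotency markers spanned 5.766 to 8.383 in progenitors and 7.875 to 9.194 in 8D organoids, against 9.299 to 9.971 in ESCs and 4.622 to 5.125 in embryonic kidneys.

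Most SLRP genes sit beside each other. In the order of the RefSeq gene table (assembly GRCm38.p6), Ecm2, Aspn, Omd and Ogn are consecutive on chromosome 13. Dcn, Lum, Kera (keratocan, of the cornea) and Epyc are consecutive on chromosome 10, and Optc, Prelp and Fmod on chromosome 1. Bgn lies on the X chromosome and Podn on chromosome 4. RefSeq promoters were matched for 8 of the 10 members, all but Dcn and Lum. The 3 promoters of the chromosome 13 cluster are shown because Omd, unlike Aspn and Ogn, was above the receptor level on no array, as described below. Each line gives the 250 bases before the start of the gene, 5′ to 3′ on the plus strand in GRCm38.p6. Capitals mark matches, on either strand and at any position, to TATAAA (the letters of the TATA box) or CCAAT.
Aspn: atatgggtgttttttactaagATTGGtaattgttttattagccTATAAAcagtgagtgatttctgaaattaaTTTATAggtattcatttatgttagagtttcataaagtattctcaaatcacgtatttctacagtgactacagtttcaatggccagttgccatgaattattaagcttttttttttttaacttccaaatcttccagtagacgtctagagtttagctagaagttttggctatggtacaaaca
Omd: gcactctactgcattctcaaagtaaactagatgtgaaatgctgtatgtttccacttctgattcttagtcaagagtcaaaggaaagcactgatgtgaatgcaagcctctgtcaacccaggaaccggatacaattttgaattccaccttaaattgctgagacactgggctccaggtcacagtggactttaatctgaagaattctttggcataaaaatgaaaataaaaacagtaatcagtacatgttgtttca
Ogn: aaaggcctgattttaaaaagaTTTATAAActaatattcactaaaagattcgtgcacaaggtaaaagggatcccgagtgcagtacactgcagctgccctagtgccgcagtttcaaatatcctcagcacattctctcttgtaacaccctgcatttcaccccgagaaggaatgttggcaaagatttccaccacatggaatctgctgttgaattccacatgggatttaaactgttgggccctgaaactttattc
These windows lie at chr13:49544193-49544442 for Aspn, chr13:49582212-49582461 for Omd and chr13:49607765-49608014 for Ogn. Both strands were searched, so some capitals are the reverse complement of a motif. TATAAA is in 12.4% of the 32851 promoter windows of this length, and CCAAT in 33.8%. The Aspn window held TATAAA once on each strand, 207 and 178 bases before the start, and CCAAT on the minus strand. The Ogn window held TATAAA on each strand, in matches that overlap and begin 229 and 227 bases before the start. The Omd window held none of the 4 motifs searched, which also included the GC box GGGCGG (in 32.7% of windows) and the AP-1 site TGANTCA (in 6.75%). Windows of Bgn and Podn held GGGCGG. GC content was 30% in the Aspn window, 38.4% in the Omd window and 42.0% in the Ogn window, and the median of all windows was 52.4%. A match is a description of the letters and was not tested as a binding site.

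Of the 10 members, Dcn, Bgn, Fmod and Podn were above the receptor level on all 30 arrays, Prelp on 29, Ogn on 28, Lum on 23 and Aspn on 20. Epyc was above it on 1 array and Omd on none, so no linear fold is given for either, and their fitted log2 differences are of values near background. Different genes are read by different probes, so levels are compared between groups and not between genes.

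**Figure D1:**
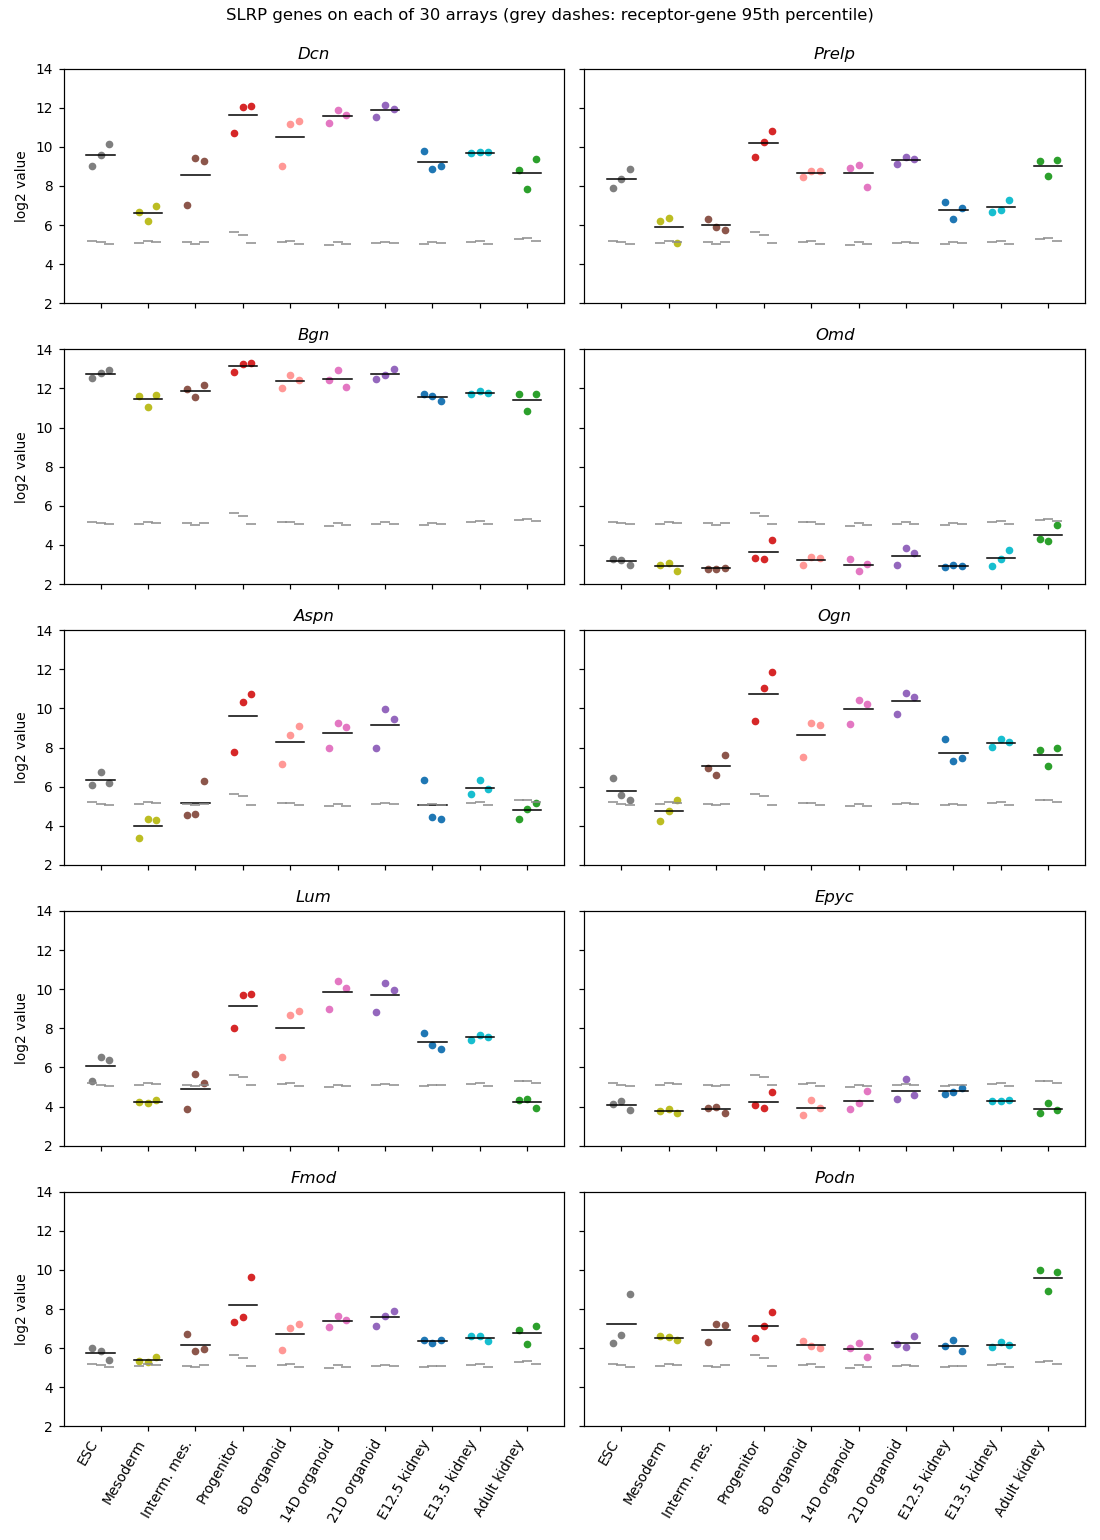
log2 value (vertical axis) of each SLRP gene on each of 30 arrays, with the groups along the horizontal axis, 1 point per array and a black line at the mean of 3 arrays. Grey dashes are the receptor level of each array. Dcn, Lum, Ogn and Aspn were lowest in mesoderm cells or adult kidneys and highest in progenitors and organoids, while Podn was highest in adult kidneys and Omd stayed under the dashes everywhere.

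Among the class I members, most of which carry chondroitin or dermatan sulfate, Dcn (decorin, which coats collagen fibrils and binds TGF-beta) was above the receptor level on every array. Its values in ESCs were 9.02, 9.60 and 10.13, and in mesoderm cells 6.66, 6.20 and 6.96. Intermediate mesoderm arrays read 7.04, 9.42 and 9.29, with replicate 1 close to the mesoderm arrays. Progenitors read 10.72, 12.01 and 12.10, above every array of the earlier stages. Dcn values were 9.02, 11.15 and 11.34 in 8D organoids, 11.20, 11.87 and 11.61 in 14D organoids and 11.51, 12.14 and 11.94 in 21D organoids. Embryonic kidneys lay between 8.86 and 9.77, and adult kidneys read 8.83, 7.82 and 9.38. All 3 progenitor arrays and the 14D and 21D organoid arrays were thus above all kidney arrays, while 8D replicate 1 fell among the kidneys.

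Aspn (asporin, which binds collagen and TGF-beta and lacks the usual sugar chains) was below the receptor level on all 3 mesoderm arrays (3.38, 4.35 and 4.27) and on all 3 adult kidney arrays (4.34, 4.88 and 5.14). ESCs read 6.08, 6.73 and 6.17. Progenitors read 7.78, 10.35 and 10.72, so that replicate 1 lay more than 2 log2 units below the other progenitor arrays. Organoid values were 7.17, 8.65 and 9.09 at 8D, 7.95, 9.27 and 9.07 at 14D and 8.00, 9.96 and 9.48 at 21D. Replicate 1 was the lowest of each organoid group as well. E12.5 kidneys gave 6.33, 4.45 and 4.35, with 1 array above the receptor level, and E13.5 kidneys gave 5.61, 6.34 and 5.90, with all 3 above it. Bgn (biglycan, which binds collagen and the innate receptors Tlr2 and Tlr4) had group means that spanned 1.72, from 11.42 in adult kidneys to 13.14 in progenitors. The progenitor arrays (12.84, 13.26 and 13.31) did not overlap with the embryonic kidneys (11.38 to 11.89). On progenitor replicates 2 and 3 Bgn was the highest value of all genes on the array, and whether an upper limit of the array narrowed its range was not tested.

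Class II members carry keratan sulfate or are related to such genes. Lum (lumican, needed for the regular collagen of the cornea) read 5.33, 6.51 and 6.38 in ESCs and 4.22, 4.17 and 4.31 in mesoderm cells, the latter all below the receptor level. Progenitors gave 7.99, 9.70 and 9.77. It held at 8.99, 10.42 and 10.08 in 14D organoids and 8.85, 10.29 and 9.96 in 21D organoids, while 8D organoids read 6.51, 8.68 and 8.87. Embryonic kidneys lay between 6.96 and 7.74, and in adult kidneys Lum was below the receptor level on all arrays (4.33, 4.37 and 3.95). Lum thus had its lowest group means in mesoderm cells and in adult kidneys, which were not distinguishable from each other (limma, adjusted p = 0.627).

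Prelp (which binds collagen and the heparan sulfate of basement membranes) was the member with separate high levels in culture and in adult tissue. It read 7.87, 8.33 and 8.87 in ESCs, 6.20, 6.38 and 5.07 in mesoderm cells and 9.50, 10.26 and 10.82 in progenitors. Embryonic kidneys lay between 6.32 and 7.28, whereas adult kidneys gave 9.25, 8.50 and 9.34. The adult arrays overlapped with those of 21D organoids (9.14, 9.49 and 9.39). Fmod (fibromodulin, which guides fibril assembly in tendon) had group means from 5.40 in mesoderm cells to 8.19 in progenitors. Its progenitor arrays were uneven, at 7.32, 7.59 and 9.65, with replicate 3 alone above all other arrays of the series. Omd (osteomodulin, known from bone and dentin) never reached the receptor level, and its highest array was an adult kidney at 5.01.

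Of the class III members, Ogn (osteoglycin, also called mimecan, of bone and cornea) was above the receptor level on all arrays but 2 mesoderm arrays. It read 6.44, 5.56 and 5.34 in ESCs and 4.25, 4.74 and 5.33 in mesoderm cells. Intermediate mesoderm cells gave 6.93, 6.62 and 7.62, and progenitors 9.36, 11.03 and 11.87. All arrays of these later stages were above those of the stage before. Organoids gave 7.51, 9.24 and 9.16 at 8D, 9.22, 10.44 and 10.23 at 14D and 9.72, 10.77 and 10.57 at 21D. Embryonic kidneys lay between 7.33 and 8.42 and adult kidneys between 7.06 and 8.00. Epyc (epiphycan, a cartilage proteoglycan) was above the receptor level on a single array, 21D organoid replicate 2, at 5.43.

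Podn (podocan, class V, first cloned from podocytes of the kidney) ran differently from the rest. Adult kidneys read 10.02, 8.90 and 9.89, above all 27 other arrays. In ESCs it read 6.28, 6.70 and 8.79, with replicate 3 more than 2 log2 units above the other ESC arrays. Mesoderm cells, organoids and embryonic kidneys all lay between 5.53 and 6.62. Progenitors gave 6.51, 7.12 and 7.85. Adult kidneys were distinguishable from ESCs, the next group in order (log2 fold change 2.12, adjusted p = 6.91e-05). None of the lower neighbours in that order was distinguishable from the next (adjusted p of 0.4 or more).

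The first step tested was from ESCs to mesoderm. Dcn, Lum, Aspn, Bgn and Prelp fell, so that 5 of 10 members were called lower, against 5.8% of all genes. No member was called higher, against 5.86% of all genes. Calls are made at an adjusted p under 0.05 (limma with Benjamini-Hochberg adjustment over all 23986 genes), and each fold change is from a model with a term for the batch. Dcn fell by 2.97 on the log2 scale (SE 0.50, adjusted p = 0.000287), Prelp, below the receptor level on mesoderm replicate 3, by 2.47 (SE 0.35, adjusted p = 5.88e-05) and Bgn by 1.30 (SE 0.24, adjusted p = 0.000962). Lum and Aspn dropped below the receptor level on all mesoderm arrays, and therefore have bounds alone. A bound sets the mean of the brighter group against the mean over the dimmer arrays of the higher of the receptor level and the gene's own value. Between the batch 1 arrays Dcn differed by -2.35 and Prelp by -1.67, and between the batch 2 arrays by -3.28 and -2.88. ESCs were at least 1.9-fold higher in Lum (adjusted p = 0.0127) and at least 2.27-fold higher in Aspn (adjusted p = 0.0107). The ESC and mesoderm arrays of Dcn, Lum, Ogn, Aspn, Bgn and Prelp did not overlap, for 6 of 10 members against 13.8% of all genes. The median member changed by -1.15 and the median gene by 0.01.

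Markers of fibroblasts and feeders moved with this step. Of 15 such genes, 8 fell and none rose, and their array means were 7.010 to 7.524 in ESCs and 6.042 to 6.371 in mesoderm cells. Postn (periostin, a matrix protein of fibroblasts) fell by 2.61 (adjusted p = 0.000144), while Fap was below the receptor level on all arrays of both groups. The ESC line was maintained on fibroblast feeders, and the methods do not state whether these were removed before RNA was taken. The part of feeder cells in the Dcn, Lum, Aspn, Bgn and Prelp values was not tested. Here and in every later comparison of bulk RNA, fewer cells of a type and less RNA per cell cannot be told apart. The Aspn call was lost without ESC replicate 1 (adjusted p = 0.0764) and among batch 2 arrays (0.0929), and the Lum call without mesoderm replicate 2 (0.0677) or 3 (0.0544).

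From mesoderm to intermediate mesoderm, Dcn and Ogn rose. These are 2 of 10 members, against 3.15% of all genes called higher, and no member was called lower, against 3.9%. Ogn rose by 2.28 (SE 0.51, adjusted p = 0.0068), 2.68 between the batch 1 arrays and 2.08 between the batch 2 arrays. Only 1 of 3 mesoderm arrays was above the receptor level for Ogn, so these differences are in part against background. Dcn rose by 1.98 (SE 0.50, adjusted p = 0.0152). It differed by 0.38 within batch 1 and by 2.77 within batch 2, and its call was lost without mesoderm replicate 2 (adjusted p = 0.115) or 3 (0.0516) and without intermediate mesoderm replicate 2 (0.0937) or 3 (0.0753). Among fibrillar collagens and proteins that bind their fibrils, which SLRPs decorate, 9 of 21 rose and none fell. Col12a1, a collagen on the fibril surface, rose by 2.35 (adjusted p = 0.000957) and Col1a2 by 1.70 (0.00624). The median change was 0.74 in this list of collagens and fibril proteins and 0.54 in the SLRP genes. The difference between the lists was not tested.

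Most members rose from intermediate mesoderm to progenitors. Dcn, Bgn, Aspn, Lum, Fmod, Prelp, Ogn and Omd were called higher, 8 of 10 members against 10.7% of all genes, and none was called lower, against 15.9%. For these 8 members, all 3 progenitor arrays lay above all 3 intermediate mesoderm arrays, as did 13.9% of all genes. Aspn rose by 4.47 (SE 0.59, adjusted p = 5.51e-06), Lum by 4.26 (SE 0.48, adjusted p = 7.11e-07) and Prelp by 4.21 (SE 0.35, adjusted p = 2.01e-08). Aspn had been above the receptor level on 1 of 3 intermediate mesoderm arrays and Lum on 2 of 3, so these differences are in part against background, and folds on the linear scale are left out for both. Ogn rose by 3.70 (12.97-fold) and Dcn by 3.02 (8.14-fold). Fmod rose by 2.01 (SE 0.42, adjusted p = 0.000856), or by 1.24 without progenitor replicate 3, and Bgn by 1.24 (SE 0.24, adjusted p = 0.000485). The Fmod call was lost where these 6 arrays were fitted alone (adjusted p = 0.0915). Podn differed by 0.25 (95% confidence interval -0.54 to 1.04) and did not pass the test. Omd (adjusted p = 0.0151) stayed below the receptor level on all 6 arrays, and its call was lost without progenitor replicate 3 (0.123) or intermediate mesoderm replicate 2 (0.0509).

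The increases were in the same direction within both batches. Between the batch 1 arrays, 1 per group, Aspn differed by 3.22, Lum by 4.14 and Prelp by 3.17. Between the batch 2 arrays they differed by 5.10, 4.32 and 4.72. Across the 5 comparisons that had arrays of both batches on each side, all 29 called results of members kept their direction in each batch.

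Neighbouring members did not all reach the receptor level. Aspn and Ogn, on either side of Omd, rose by several log2 units and were above it on every progenitor array. Omd between them read 2.79 to 2.83 in intermediate mesoderm cells and 3.29 to 4.28 in progenitors, below the receptor level throughout. Omd was itself called higher, and values so near background cannot show whether it moved with its neighbours. Ecm2, the relative next to Aspn, was called higher (adjusted p = 0.00079). It was above the receptor level on no intermediate mesoderm array and on 2 of 3 progenitor arrays, which read 4.54, 6.37 and 8.50. On chromosome 10, Dcn and Lum rose while Epyc, past Kera, stayed below the receptor level on all 6 arrays and was not called (adjusted p = 0.293). On chromosome 1, Prelp and Fmod both rose. Optc, beside Prelp and an SLRP of the eye, rose by 0.64 (adjusted p = 0.0477). In the promoter windows shown above, Aspn and Ogn held TATAAA, 178 to 229 bases before the start, and Omd did not. The windows of Fmod and Epyc also held none of the 4 motifs searched. Fmod was above the receptor level on all 30 arrays and Epyc on 1. TATAAA was absent from the windows of Bgn, Prelp and Podn as well. These are descriptions of sequences, and a link with expression was not tested.

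**Figure D2:**
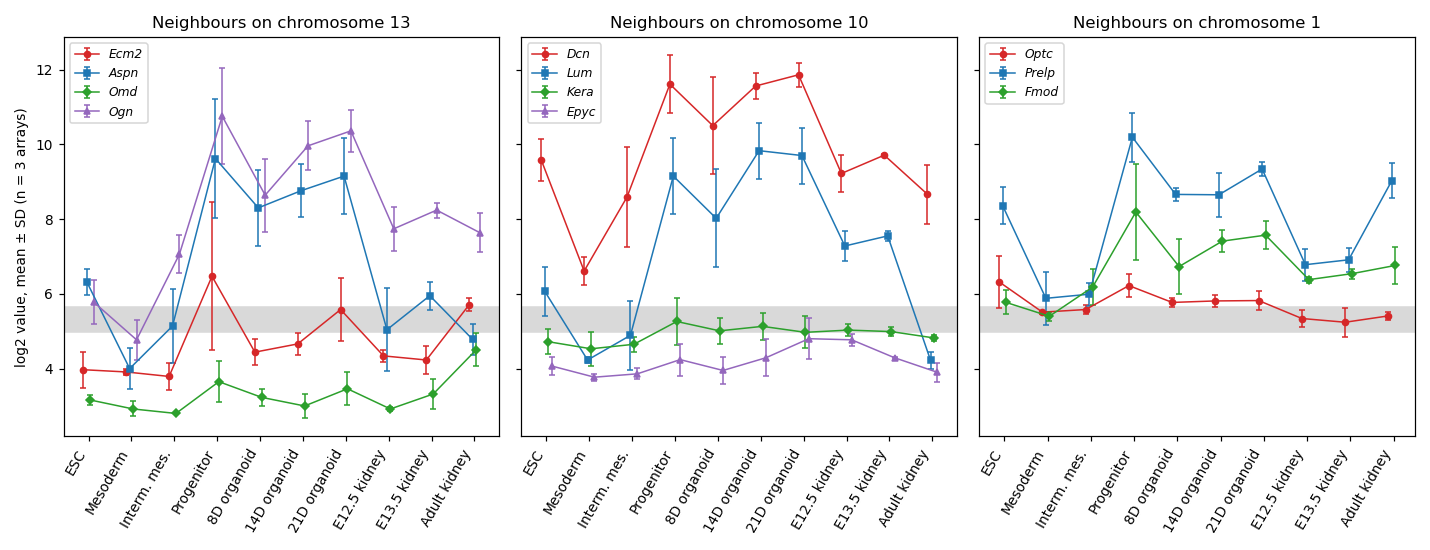
Mean ± SD of 3 arrays per group (log2 value, vertical axis) for neighbouring genes on chromosomes 13, 10 and 1, with the groups along the horizontal axis. The grey band is the range of the receptor level. Omd and Epyc had all group means below the band, while their neighbours Aspn, Ogn, Dcn and Lum had their highest group means in progenitors or organoids.

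Genes that act on SLRPs were counted beside them. Of 21 measured genes for the linker and for chondroitin and dermatan sulfate chains, 6 rose and 2 fell from intermediate mesoderm to progenitors. They included Csgalnact1 (log2 fold change 1.38, adjusted p = 0.000112), which starts chondroitin chains, and Dsel (1.27, adjusted p = 0.000122), a dermatan sulfate epimerase. Of 8 genes of keratan sulfate synthesis, Chst2 rose (2.08, adjusted p = 1.54e-05) while B3gnt7 (-1.62) and Chst5 (-0.60) fell. Of 21 collagen and fibril genes, 10 rose and 1 fell, led by Thbs2 (3.24, SE 0.34), a matrix regulator, and Col14a1 (2.51, SE 0.48), which binds decorin. Of 13 genes linked to the cutting of SLRPs or their partners, 5 rose and 1 fell, with the protease Adamts1 at 2.27 (SE 0.35). Of 19 growth factors and receptors that SLRPs bind, 5 rose and 1 fell, among them Egfr (1.55, adjusted p = 0.000746), a receptor for decorin, and Igf1 (1.56, adjusted p = 0.00954). Fibroblast markers rose too, 10 of 15 with none falling, from array means of 6.623 to 7.025 up to 8.170 to 8.923. The share of such cells in the SLRP values was not tested.

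Compared to ESCs, progenitors had higher Dcn, Lum, Ogn, Aspn, Fmod and Prelp. These 6 members of 10 stand against 14.8% of all genes called higher, and no member was called lower, against 19.6%. Ogn differed by 4.97 (SE 0.51, adjusted p = 1.13e-07), a 31.41-fold difference and the largest of the 6. Aspn was higher by 3.29 (9.80-fold), Lum by 3.08 (8.47-fold), Fmod by 2.42 (5.34-fold), Dcn by 2.03 (4.08-fold) and Prelp by 1.84 (3.57-fold). Within batch 1 Ogn differed by 2.92 and Aspn by 1.70, and within batch 2 by 6.0 and 4.09. Bgn differed by 0.37 (95% confidence interval -0.13 to 0.88) and did not pass. These progenitors were thus above ESCs, a line maintained on feeders, in 6 members. The array means of fibroblast markers (7.010 to 7.524 in ESCs, 8.170 to 8.923 in progenitors) did not overlap either. Among those markers 10 rose and 3 fell. Of the chondroitin and dermatan sulfate genes 9 of 21 rose and 1 fell, and of the collagen and fibril genes 13 of 21 rose and 2 fell, with Col14a1 at 4.24 (adjusted p = 4.61e-07) and Col3a1 at 4.07 (adjusted p = 1.28e-07).

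After aggregation, most members were lower in 8D organoids than in progenitors. Ogn, Prelp, Fmod, Lum, Podn and Bgn were called lower, 6 of 10 against 7.69% of all genes, and none was called higher, against 11.7%. Ogn fell by 2.28 (SE 0.52, adjusted p = 0.00297) and Prelp by 1.61 (SE 0.36, adjusted p = 0.00269), and these 2 calls were kept in every alternative run. Among batch 2 arrays, to which all organoids belong, Ogn differed by -2.81 and Prelp by -1.88. Each of the other 4 calls was lost when certain arrays were left out 1 at a time. 8D replicate 1 and progenitor replicate 3 stood at the ends of their groups for Lum and Fmod. Without 8D replicate 1, Lum differed by -0.69 (adjusted p = 0.325), Fmod by -1.04 (0.134), Bgn by -0.61 (0.151) and Podn by -1.31 (0.052). Without progenitor replicate 3, the values were -1.26 for Lum (0.128), -0.61 for Fmod (0.228), -0.71 for Bgn (0.0926) and -0.94 for Podn (0.151). The Lum and Bgn calls were also lost without progenitor replicate 2 (0.131 and 0.0938), and the Podn call without 8D replicate 2 (0.0714) or 3 (0.0853). Podn differed by -1.19 without 8D replicate 2 and by -1.13 without 8D replicate 3, close to -1.21 with all arrays. A fit without the batch term called neither Lum (0.152) nor Podn (0.108), and a fit of these 6 arrays alone called none of Lum (0.214), Bgn (0.0823) and Fmod (0.166).

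Dcn (-1.40, adjusted p = 0.0543) and Aspn (-1.68, adjusted p = 0.0534) missed the threshold here. Dcn passed without 8D replicate 2 (0.0342) or 3 (0.0216), and Aspn without progenitor replicate 1 (0.0108) or 8D replicate 3 (0.0322). Both passed among batch 2 arrays (0.0377 and 0.0191). 8D replicate 1 was the lowest array of its group for 9 of 10 members, with Podn the exception. It also had the lowest fibroblast marker mean, 7.201 against 8.186 and 8.297. Of these 15 markers 5 fell from progenitors to 8D organoids, with Col6a1 at -1.49 (adjusted p = 0.0007). Their part in the fall of Ogn and Prelp was not tested. Of the 21 chondroitin and dermatan sulfate genes 6 fell and none rose, Dsel (-1.14) and Csgalnact1 (-0.88) among them.

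Between 8D and 21D organoids, Lum and Ogn rose, and Epyc was called higher around the receptor level. These are 3 of 10 members against 5.95% of all genes, and no member was called lower, against 5.54%. Lum rose by 1.69 (SE 0.48, adjusted p = 0.023) and Ogn by 1.72 (SE 0.51, adjusted p = 0.0288). All 21D arrays were above all 8D arrays for Ogn, Dcn, Prelp and Epyc (4 of 10 members, 11.5% of all genes). Dcn differed by 1.36 (95% confidence interval 0.34 to 2.38, adjusted p = 0.0788). These calls were lost when certain arrays were left out 1 at a time. Without 8D replicate 1, Lum differed by 0.93 (adjusted p = 0.23) and Ogn by 1.15 (0.23), and the Epyc call was lost (0.188). Lum and Ogn were also lost without 21D replicate 2 (0.133 and 0.131) or 3 (0.0717 and 0.0802), and Epyc without 21D replicate 2 (0.247) or 8D replicate 3 (0.0669). In a fit of these 6 arrays alone none of Lum (0.196), Ogn (0.104) and Epyc (0.172) was called. Dcn passed without 8D replicate 2 (0.0492) or 3 (0.0339). Between progenitors and 21D organoids the adjusted p of the members (limma) ran from 0.0748 (Podn, 1.10 higher in progenitors) to 0.973 (Dcn). The Dcn group means were 11.61 in progenitors and 11.86 in 21D organoids.

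Against embryonic kidneys (E12.5 and E13.5, 6 arrays), progenitors were higher in Dcn, Bgn, Aspn, Lum, Fmod, Prelp, Ogn and Podn. These were 8 of 10 members, against 14.2% of all genes, and no member was called lower, against 20%. In all 8 the progenitor arrays lay above the kidney arrays, as in 10.9% of genes. Aspn differed by 4.30 (SE 0.52, adjusted p = 6.42e-07), Prelp by 3.38 (10.43-fold, SE 0.31) and Ogn by 2.85 (7.19-fold, SE 0.44). Of the 6 kidney arrays 4 were above the receptor level for Aspn, whose difference is in part against background. Dcn was 4.91-fold, Lum 3.71-fold, Fmod 3.31-fold and Bgn 2.78-fold higher, the last with progenitor values at the top of 2 arrays. Without progenitor replicate 3, Fmod differed by 0.92 in place of 1.73, and the Podn call (1.12, adjusted p = 0.0113) was lost (0.86, adjusted p = 0.0886). Omd missed the threshold (0.0559) and passed without progenitor replicate 2 (0.0229) or E13.5 replicate 3 (0.0318), all below the receptor level. Between batch 1 arrays Aspn differed by 2.17 and Prelp by 2.84, and between batch 2 arrays by 5.06 and 3.65.

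The 21D organoids kept 7 of these differences. Dcn, Bgn, Aspn, Lum, Fmod, Prelp and Ogn were called higher than in embryonic kidneys, 7 of 10 against 12.1% of all genes, and none was called lower, against 16.2%. Aspn, above the receptor level on 4 of the 6 kidney arrays, differed by 3.47 (SE 0.52), Prelp by 2.45 (5.48-fold, SE 0.31), Ogn by 2.29 (4.88-fold), Dcn by 2.25 (4.77-fold) and Lum by 2.13 (4.38-fold). Bgn was 2.03-fold and Fmod 2.15-fold higher, and the Fmod call was lost without 21D replicate 2 (adjusted p = 0.0801) or 3 (0.116). Progenitors and 21D organoids share the embryonic kidney arrays in these comparisons. Kidney stroma markers, in contrast to the SLRP genes, were lower than in embryonic kidneys for 6 of 7 genes, both in progenitors and in 21D organoids. Their array means were 6.736 to 7.557 in progenitors, 7.622 to 7.954 in 21D organoids and 9.470 to 9.761 in embryonic kidneys. Of 15 fibroblast markers, 6 were higher than in embryonic kidneys in progenitors and 5 in 21D organoids, and none was lower in either. Of 21 collagen and fibril genes, 11 were higher and 3 lower in progenitors, and 7 were higher and 2 lower in 21D organoids. Of the chondroitin and dermatan sulfate genes 7 of 21 were lower in 21D organoids and none higher, including Xylt1 (-0.95, adjusted p = 2.9e-05), which adds the first sugar of the chain.

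**Figure D3:**
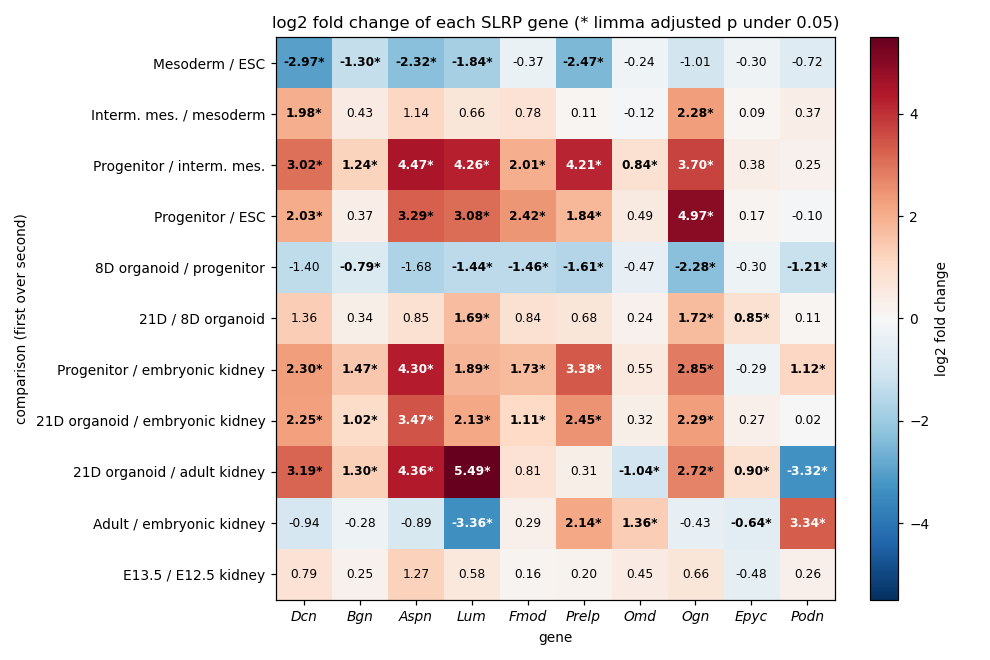
log2 fold change (colour and printed value) of each SLRP gene (horizontal axis) in each of 11 comparisons (vertical axis, first group over second), from limma. Asterisks mark an adjusted p under 0.05. All 6 to 8 calls in each of the progenitor comparisons with intermediate mesoderm, ESCs and embryonic kidneys are increases, and Podn has its largest values in the comparisons with adult kidneys.

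Adult kidneys differed from 21D organoids in 8 members, of which Omd and Epyc had values near background. Dcn, Lum, Ogn, Aspn, Bgn and Epyc were higher in organoids, 6 of 10 against 24.4% of all genes, and Podn and Omd were lower, 2 of 10 against 24%. Lum was at least 21.5-fold higher in organoids (adjusted p = 6.95e-10) and Aspn at least 14.7-fold (adjusted p = 9.91e-07), since both were below the receptor level on all adult arrays. Dcn was 9.13-fold higher (log2 fold change 3.19, SE 0.50), Ogn 6.57-fold and Bgn 2.47-fold. Podn was lower in organoids by 3.32 on the log2 scale (SE 0.38, adjusted p = 8.29e-08). Prelp differed by 0.31 (95% confidence interval -0.42 to 1.04) and Fmod by 0.81 (-0.05 to 1.68), and neither passed. Omd was below the receptor level on all arrays of both groups, and Epyc was above it on 21D replicate 2 alone. The Epyc call was lost without that array (0.0605). The share of members called lower was no larger than that of all genes. Fibroblast markers were higher in organoids for 13 of 15 genes and lower for 1, with array means of 7.815 to 8.615 against 5.853 to 6.180 in adult kidneys, where Twist2, Postn and Fap were below the receptor level.

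Native kidneys of different age were compared next. From embryonic to adult kidneys Podn, Prelp and Omd were called higher, 3 of 10 against 24.3% of all genes, and Lum and Epyc lower, 2 of 10 against 25.4%. These shares lie near those of all genes. Podn was 10.12-fold higher in adult kidneys (log2 fold change 3.34, SE 0.33, adjusted p = 5.38e-09) and Prelp 4.42-fold (2.14, SE 0.31, adjusted p = 1.95e-06). Embryonic kidneys were at least 4.42-fold higher in Lum (adjusted p = 2.04e-07). Dcn (-0.94, adjusted p = 0.0766), Bgn (-0.28, 0.296), Ogn (-0.43, 0.45) and Fmod (0.29, 0.535) did not pass, and Dcn passed without adult replicate 3 (0.0348). Epyc and Omd were below the receptor level on all 9 kidney arrays, and the Epyc call was lost without adult replicate 1 (0.101) or 3 (0.0668). Podn and Prelp thus rose while 14 of 21 collagen and fibril genes fell and 2 rose, with Col1a1 at -3.90 (adjusted p = 5.16e-11) and Fbn2 at -5.11 (adjusted p = 2.64e-12). Fibroblast markers fell in 13 of 15 cases and rose in 1. The 4 podocyte markers had array means of 7.126 to 7.506 in adult kidneys and 5.772 to 6.233 in embryonic kidneys, and the part of podocytes in the Podn values was not tested. Dermatan sulfate and chondroitin genes divided, with 11 of 21 lower, such as Dse (-2.41, adjusted p = 3.13e-12), and 6 higher, such as Csgalnact1 (2.14, adjusted p = 2.42e-09).

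Between E13.5 and E12.5 kidneys no member was called, and 0% of all genes were called by limma. At an unadjusted p under 0.05 there were 465 genes and 1 member. With array weights 5 genes passed, none of them a member. Aspn had the largest difference, 1.27 (95% confidence interval 0.02 to 2.52), with E12.5 arrays at 6.33, 4.45 and 4.35 overlapping the E13.5 arrays and 2 of them below the receptor level.

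Members were also compared with each other over the 30 arrays. Arrays of a group share their condition, so the correlations describe the series and carry no test. Dcn, Lum, Ogn and Aspn formed a close set, with Pearson's r from 0.84 (Lum and Ogn) to 0.91 (Dcn with Lum and Dcn with Aspn). Ogn and Fmod had r = 0.92. Bgn followed Aspn (0.82) and Dcn (0.76) more than Ogn (0.58). Podn ran against Lum (-0.46) and beside Omd (0.67), the member with no array above the receptor level. In batch 2 alone the values were close, with 0.90 for Dcn and Lum and -0.57 for Podn and Lum.

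The genes most like each member over the 30 arrays, outside the family, were often collagen VI genes, which encode a collagen of beaded microfibrils around cells. For Lum they were Col6a3 (r = 0.951), Col6a1 (0.950) and Col6a2 (0.928). Col6a1 and Col6a3 led for Dcn (0.899 and 0.890, then Zdhhc1 at 0.878), and Col6a1 for Aspn (0.929, then Ppp1r3c at 0.904 and B3gnt9 at 0.90). Nfix, a transcription factor, led for Ogn (0.927, then Col6a2 at 0.919 and Gdf10 at 0.918) and for Fmod (0.921, then Kcne4 at 0.901 and Abi3bp at 0.892). Bgn was closest to Thbs2 (0.912), Pros1 (0.864) and Mmp19 (0.855). Prelp was closest to Vegfa (0.870), Ifi27 (0.867) and Ifnar2 (0.863), and Podn to Agpat3 (0.905), Ly6c2 (0.895) and Phyh (0.891). For Omd and Epyc, at or below the receptor level, the nearest were Hfe (0.873), Lrmda (0.869) and Plscr4 (0.860), and Casq1 (0.774), Rftn2 (0.765) and Pcdhb7 (0.760).

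Fibroblast markers tracked part of the family, and their list includes Col6a1, Col6a2 and Col6a3, named above. Over the 30 arrays, Lum correlated with the mean of the 15 markers at r = 0.95, Dcn at 0.86, Aspn at 0.85 and Ogn at 0.80. Prelp was at 0.51 and Podn at -0.51. Over the 21 arrays of cultured cells and organoids, Prelp was at 0.88 and Podn at -0.11. Other marker lists followed members over these 21 arrays too. The intermediate mesoderm mean was at 0.70 with Lum and 0.68 with Dcn, and the pluripotency mean at -0.84 with Fmod. Prelp parted from the markers in the adult kidneys, where the marker means were 5.853 to 6.180, in the range of mesoderm cells (6.042 to 6.371), while Prelp read 8.50 to 9.34 against 5.07 to 6.38. In the same adult arrays Lum read 3.95 to 4.37, as low as in mesoderm cells (4.17 to 4.31).

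**Figure D4:**
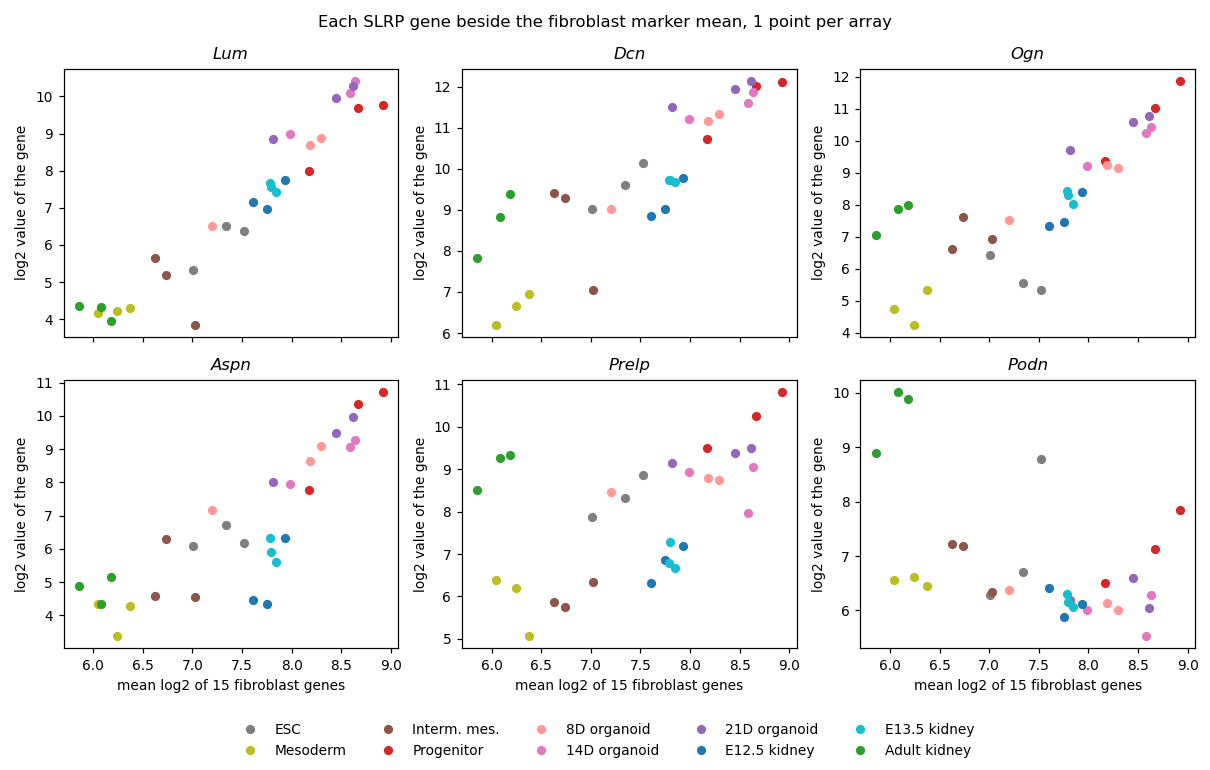
log2 value of 6 SLRP genes (vertical axis) against the mean log2 value of 15 fibroblast and feeder marker genes (horizontal axis), 1 point per array and 1 colour per group. Lum rose along the marker mean across all groups (r = 0.95), whereas in Prelp and Podn the adult kidney arrays stood above the other arrays of low marker mean.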

How the data were processed

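Total RNA of 30 samples was labelled and hybridised to Affymetrix Mouse Gene 2.0 ST arrays, 1 array per sample. The authors normalised the arrays with RMA (background correction, quantile normalisation and a summary of probes per gene, on a log2 scale), using oligo and limma, and deposited a table of log2 values with 1 row per gene symbol. Software versions are not given, nor is the rule that assigned probes to genes. RMA pulls the distributions of arrays together, so a change in total RNA per cell does not show, and probes near background compress fold changes.

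The deposited log2 values were fitted as they stand with limma 3.58.1 in R 4.3.3, over all 30 arrays, with a coefficient for each group and a term for the batch in the labels. A fitted fold change can therefore differ from the difference of group means. For embryonic kidney, the coefficients at E12.5 and E13.5 were averaged. Tests were two-sided, and a call needed an adjusted p under 0.05 over 23986 genes. Other steps used Python 3.11.15 with numpy 2.4.6, pandas 2.3.3 and matplotlib 3.10.9, and the fit was tested on simulated data. The members and gene lists were chosen with earlier results of these data known. Of 200 listed genes 198 were measured, 2 of them under an older symbol. All members are named, with up to 4 called genes of largest change per related list and comparison, and the 3 genes most correlated with each member (predicted genes and small RNAs left out). Alternatives were a fit without the batch term, batch 2 alone, the compared groups alone, the replicate number as a block, array weights, a filter on dim genes (17553 genes kept), quantile normalisation, a trended and robust prior, a log2 fold change of at least 1, E12.5 and E13.5 as a single group, and leaving out each array in turn.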

Additional observations from a re-analysis of the deposited data

How the results depend on the processing

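Of 110 fold changes of members, 58 were called, 42 of these kept their call in every alternative that gave a value, and 16 lost it in at least 1, while 7 others gained a call in at least 1. Over 1748 alternative values, 1657 kept both direction and side of the threshold, 57 lost a call, 17 gained one and 17 changed sign, none of the last in a called result. With the compared groups fitted alone, 3 members in place of 6 were called between 8D organoids and progenitors and 0 in place of 3 between 21D and 8D organoids. The filter on dim genes, which removes Omd and Epyc, left 3 members in place of 5 between adult and embryonic kidneys. The cause of the other changes was not tested. Leaving out 1 array at a time gave 4 to 5 members called between mesoderm and ESCs, 1 to 2 between intermediate mesoderm and mesoderm, 7 to 8 between progenitors and intermediate mesoderm, 6 between progenitors and ESCs, 2 to 7 between 8D organoids and progenitors, 0 to 4 between 21D and 8D organoids, 7 to 9 between progenitors and embryonic kidneys, 6 to 7 between 21D organoids and embryonic kidneys, 7 to 8 between 21D organoids and adult kidneys, 4 to 5 between adult and embryonic kidneys and 0 between E13.5 and E12.5 kidneys.

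Sign changes were in small differences. Leaving out 1 array at a time, Prelp ranged from -0.36 to 0.40 between intermediate mesoderm and mesoderm and from -0.03 to 0.40 between E13.5 and E12.5 kidneys. Epyc ranged from -0.08 to 0.34 between progenitors and ESCs (-0.05 with array weights) and from -0.05 to 0.47 between 21D organoids and embryonic kidneys. Podn ranged from -0.51 to 0.59 between progenitors and ESCs, from -0.05 to 0.23 between 21D and 8D organoids and from -0.14 to 0.14 between 21D organoids and embryonic kidneys (-0.06 with quantile normalisation). Bgn ranged from -0.43 to 0.02 between adult and embryonic kidneys, and passed the threshold with quantile normalisation (-0.60, adjusted p = 0.0203).

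The labels number replicates 1 to 3 in every group, and whether a number links arrays of different groups is not settled. Deviations of arrays with the same number correlated at -0.22 to 0.28 over 42 pairs of arrays, and 0 of 14 pairs of groups had all 3 correlations over 0.1. The 14D organoids were not in this check. In Dcn, Lum, Ogn and Aspn, replicate 1 was the lowest array of each organoid group, so a link between organoid arrays of the same number remains possible. With the replicate block, 5 members in place of 6 were called between 8D organoids and progenitors (Lum -1.18, adjusted p = 0.0746), Podn between 21D organoids and embryonic kidneys was -0.01, and no other call of a member changed.

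The number of all genes called moved as well. A log2 fold change of at least 1 left 791 in place of 2798 genes between mesoderm and ESCs and 1930 in place of 6365 between progenitors and intermediate mesoderm. The compared groups alone gave 2255 in place of 6365 there, 918 in place of 4658 between 8D organoids and progenitors and 619 in place of 2755 between 21D and 8D organoids. Batch 2 alone gave 1263 in place of 2798 genes between mesoderm and ESCs and 934 in place of 1691 between intermediate mesoderm and mesoderm, where array weights gave 3864. Omd was above the receptor level on 0 of 30 arrays and Epyc on 1, so differences in these genes are of values near background.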

Other observations

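Markers of skeletal tissue, where Fmod, Omd and Epyc are best known, were also counted. Of 15 cartilage, bone and tendon genes, 2 rose and 2 fell from intermediate mesoderm to progenitors, and their array means were 5.820 to 6.152 in intermediate mesoderm cells and 5.505 to 6.403 in progenitors. Progenitor replicate 3, the array with the highest Fmod value (9.65 against 7.32 and 7.59), had the mean of 6.403, against 5.607 and 5.505 on the other progenitor arrays, and was above every intermediate mesoderm array. Of the 15 genes, 4 were above the receptor level on all progenitor arrays. Acan, Col9a1, Matn1, Comp, Sp7, Ibsp and Bglap were above it on none, replicate 3 included. The part of skeletal cells in the Fmod values was not tested. Of 9 smooth muscle and pericyte markers 1 rose and 4 fell at that step. Endothelial markers went another way than the SLRP genes after aggregation, with 5 of 6 higher and 1 lower in 8D organoids than in progenitors. Of 10 macrophage and blood markers none was called between progenitors and intermediate mesoderm.

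The 14D organoids, which enter none of the comparisons above, lay close to 21D organoids. Differences of members between 14D and 21D had adjusted p of 0.759 or more. Compared to progenitors, Prelp was 1.61 lower (adjusted p = 0.00465) and Podn 1.44 lower (adjusted p = 0.0169) at 14D, and compared to 8D organoids Lum was 1.81 higher (adjusted p = 0.0469). Of all genes, limma called 13.6% between progenitors and 14D organoids, 2.07% between 8D and 14D organoids and 0.104% between 14D and 21D organoids.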
